A study of Mus musculus with 16 samples.

Results

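The xenobiotic-metabolising enzymes of the olfactory mucosa were described as the 128 genes whose symbol on the array begins with a cytochrome P450 family Cyp1 to Cyp4, a UDP-glucuronosyltransferase Ugt1 or Ugt2, a cytosolic glutathione transferase Gsta, Gstm, Gstp, Gstt, Gsto or Gstz, or a sulfotransferase Sult1 to Sult5, out of 19505 genes with a symbol. They were 3 Cyp1, 48 Cyp2, 9 Cyp3, 21 Cyp4, 8 Ugt2, 20 Gst and 19 Sult genes, each with 1 probe set; the rule found 0 Ugt1 genes, and Ugt2a1, Ugt2a2 and Ugt1a6a were not matched in the annotation used here. RNA came from olfactory mucosa of S100a5-tauGFP mice on C57BL/6, a reporter line in which GFP follows S100a5, a calcium-binding protein gene of olfactory sensory neurons. In all, 24 mice of both sexes, 7 to 12 weeks old, stayed for 40 hours in clean-air chambers and, from 26 hours on, received 10-second pulses every 20 minutes of isoamyl acetate (odor), an ester with a banana smell, or of filtered air (vehicle). Cells of 3 mice were pooled and sorted by fluorescence, so that 8 pools were each split into one library with GFP+ in its title and another with GFP-. The groups were odor titled GFP+, odor titled GFP- and the vehicle libraries of the same titles, with 4 arrays each.

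Titles and cell type fields contradict each other on the GFP sign in all 16 samples, and the titles are used to name the libraries. S100a5 itself had a log2 signal lower in the library titled GFP+ in 8 of 8 pools, by a mean of -1.18 (SE 0.21) in vehicle and -1.25 (SE 0.21) in odor. All values are deposited log2 signals, where 1 unit stands for a doubling, and sort differences are titled GFP+ minus titled GFP-. Array medians were 6.80 to 6.90 in odor titled GFP+, 6.42 to 6.52 in odor titled GFP-, 6.79 to 6.89 in the vehicle libraries titled GFP+ and 6.48 to 6.49 in those titled GFP-. Genes were tested with limma and called at a Benjamini-Hochberg adjusted p below 0.05, the adjustment running over 22206 probe sets. The p-values measure the spread between pools of mice.

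Olfactory mucosa is exposed to inhaled chemicals and is among the tissues richest in drug-metabolising enzymes. Cytochromes P450 of the endoplasmic reticulum oxidise odorants and toxicants, and glucuronosyl-, glutathione- and sulfotransferases conjugate the products so that they dissolve and can be exported. In this tissue the enzymes are known above all from sustentacular cells, the supporting cells of the epithelium, and from Bowman's glands beneath it, while olfactory sensory neurons carry a few of their own.

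Most of the family was dim. Each array's 5222 negative control probe sets served as background, and their median log2 signal was 5.15 to 5.56 in odor titled GFP+, 5.30 to 5.59 in odor titled GFP-, 5.17 to 5.43 in the vehicle libraries titled GFP+ and 5.40 to 5.67 in those titled GFP-. Of the 128 enzymes, 78 exceeded this level in no library and 28 in all 16. The enzymes above it in all 4 libraries of a group numbered 33 in odor titled GFP+, 30 in odor titled GFP-, 33 in the vehicle libraries titled GFP+ and 30 in those titled GFP-, or 25.8%, 23.4%, 25.8% and 23.4% of the 128. Of all tested probe sets the same held for 58.3%, 54.9%, 59.2% and 54.8% in those groups. Against the 95th percentile of the negative controls, a stricter level, the numbers were 11, 9, 10 and 9. The enzymes above the median in all 16 libraries were 12 Cyp2, 8 Gst, 4 Cyp4, 3 Sult and 1 Cyp1 gene, and 0 of the 9 Cyp3 and 0 of the 8 Ugt2 genes were among them.

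In vehicle pools, 18 of the 128 enzymes were higher in libraries titled GFP+, beside 10.2% of all tested probe sets, and 10 were lower, beside 7.16%. In odor pools 23 were higher, beside 11%, and 8 were lower, beside 9.86%. The median sort difference of the 128 enzymes was -0.08 in vehicle and -0.13 in odor, beside -0.13 and -0.14 for all tested probe sets, and this median rests largely on enzymes at background. Of the 28 enzymes above background in all 16 libraries, 16 had positive and 8 had negative sort differences in both treatments. All 18 enzymes higher in vehicle were also higher in odor (100% of the vehicle list and 78.3% of the odor list). Of the lower ones 1 was shared, Cyp2u1 (10% and 12.5%), and 7 of the 10 lower in vehicle exceeded background in 0 of the 8 vehicle libraries. The same held for 1 of the 18 higher in vehicle, and in the 8 odor libraries for 3 of the 23 higher and 2 of the 8 lower. The counts of lower enzymes depended on scaling: with each array centred on its median, which shifted every vehicle sort difference by -0.37, 16 enzymes were higher and 72 lower in vehicle and 18 higher and 70 lower in odor. Centred on 18 mature neuron markers, 22 were higher and 0 lower in vehicle and 27 higher and 0 lower in odor.

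By class, 10 of 20 glutathione transferases (50%), 5 of 48 Cyp2 (10.4%), 2 of 19 sulfotransferases (10.5%) and 1 of 3 Cyp1 genes were higher in vehicle libraries titled GFP+. The same held for 0 of 9 Cyp3, 0 of 21 Cyp4 and 0 of 8 Ugt2 genes. Shares of the Cyp2 and sulfotransferase genes lay near the 10.2% of all tested probe sets. In odor the counts of these classes, in the same order, were 12 of 20, 5 of 48, 4 of 19, 1 of 3, 0 of 9, 1 of 21 and 0 of 8. Of all tested probe sets 11% were higher in odor. The median sort difference of the glutathione transferases was 0.69 in vehicle and 0.80 in odor, and that of the Cyp2 genes was -0.16 in both. The sort difference of every gene in the 2 treatments is shown in the scatter of odor against vehicle.

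**Figure D1:**
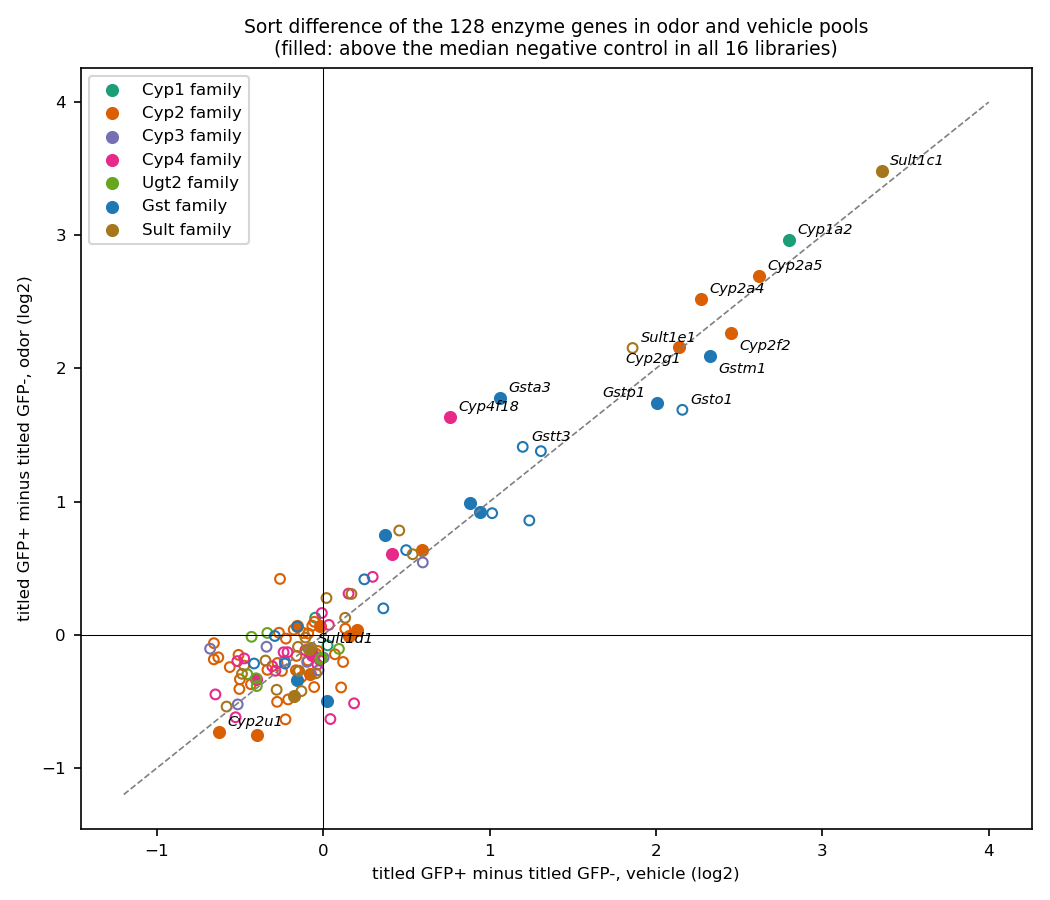
Each point is 1 of the 128 enzyme genes, with its sort difference (titled GFP+ minus titled GFP-, log2) in vehicle pools on the horizontal axis and in odor pools on the vertical axis. Filled points exceeded the median negative control in all 16 libraries, the dashed line marks equal differences, and Sult1c1 (3.36 in vehicle, 3.48 in odor) lies farthest from 0.

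The widest sort differences were found for 7 enzymes that exceeded background in all 16 libraries and differed by more than 2 on the log2 scale in both treatments, a grouping made after their values were seen: the P450s Cyp2g1, Cyp2a5, Cyp2a4, Cyp2f2 and Cyp1a2, the glutathione transferase Gstm1 and the sulfotransferase Sult1c1. They were higher in the library titled GFP+ of 8 of 8 pools. Their differences ran from 2.14 to 3.36 in vehicle and from 2.09 to 3.48 in odor, that is 4.41-fold to 10.3-fold and 4.27-fold to 11.2-fold. Each was called in both treatments, with adjusted p up to 0.000124 in vehicle and 3.79e-05 in odor by limma. The cut was applied to these same values, so the shared direction, the sizes and the calls largely follow from the choice. They describe the 7 enzymes and give no separate support.

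Cyp2g1 encodes a P450 known almost solely from olfactory mucosa. Its log2 signal was 16.40, 15.79, 14.90 and 15.48 in odor libraries titled GFP+, against 13.92, 13.17, 13.15 and 13.67 in odor libraries titled GFP-. In vehicle it was 15.67, 15.43, 14.66 and 15.66 in libraries titled GFP+, against 13.33, 13.31, 12.82 and 13.41 in libraries titled GFP-. The titled sorts did not overlap in either treatment, while odor and vehicle overlapped within each sort. Here and below such statements describe single genes, as the share of all tested probe sets without overlap is not given. The sort difference was 2.16 in odor (SE 0.29, limma adjusted p = 2.34e-05) and 2.14 in vehicle (SE 0.29, adjusted p = 2.89e-05).

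Cyp2a5, the coumarin hydroxylase of the mouse, and Cyp2a4, a steroid hydroxylase, lie in the same gene cluster with near-identical upstream sequences. Whether signal on one probe set includes the other gene was not tested, as no transcript or probe sequences were compared. The split between them is uncertain. Cyp2a5 had log2 signals of 15.85, 15.04, 13.78 and 14.49 in odor titled GFP+, against 12.55, 11.91, 11.67 and 12.27 in odor titled GFP-, and 14.87, 13.96, 13.73 and 14.45 in vehicle titled GFP+, against 11.88, 11.77, 11.13 and 11.74 in vehicle titled GFP-. Cyp2a4 had 12.10, 11.34, 10.34 and 11.28 in odor titled GFP+, against 9.14, 8.59, 8.18 and 9.08 in odor titled GFP-, and 11.21, 10.57, 9.66 and 10.999 in vehicle titled GFP+, against 8.43, 8.54, 7.94 and 8.45 in vehicle titled GFP-. For both genes every library titled GFP+ lay above every library titled GFP-. The sort difference of Cyp2a5 was 2.69 in odor (limma adjusted p = 1.97e-05) and 2.62 in vehicle (adjusted p = 2.91e-05), and that of Cyp2a4 was 2.52 (adjusted p = 3.79e-05) and 2.27 (adjusted p = 0.000124).

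Upstream of Cyp2a5 and Cyp2a4 the sequence is nearly the same. The 250 bases before the annotated start are printed for Cyp2a5 and Cyp2a4, for Cyp2f2 and Sult1c1, which moved with them, and for Sult1d1, a sulfotransferase gene that did not (RefSeq, GRCm38.p6, each on the gene's strand). Capitals mark TATAAA, the TATA box, or CACGC, the reverse complement of GCGTG, the core bound by the aryl hydrocarbon receptor.
Cyp2a5, chr7:26835089-26835338, plus strand: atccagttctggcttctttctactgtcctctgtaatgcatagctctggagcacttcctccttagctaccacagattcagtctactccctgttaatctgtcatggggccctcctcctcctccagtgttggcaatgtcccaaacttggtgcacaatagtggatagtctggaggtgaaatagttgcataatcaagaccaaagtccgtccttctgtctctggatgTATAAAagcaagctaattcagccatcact
Cyp2a4, chr7:26306942-26307191, plus strand: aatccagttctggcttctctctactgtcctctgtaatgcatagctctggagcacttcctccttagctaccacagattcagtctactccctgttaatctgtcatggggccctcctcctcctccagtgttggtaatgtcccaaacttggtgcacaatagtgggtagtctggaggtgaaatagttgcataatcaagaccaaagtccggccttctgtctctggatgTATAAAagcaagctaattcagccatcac
Cyp2f2, chr7:27119705-27119954, plus strand: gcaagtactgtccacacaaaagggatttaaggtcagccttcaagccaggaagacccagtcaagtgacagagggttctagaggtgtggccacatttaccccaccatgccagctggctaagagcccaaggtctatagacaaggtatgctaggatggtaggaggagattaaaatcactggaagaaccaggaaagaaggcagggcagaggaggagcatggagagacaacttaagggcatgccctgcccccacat
Sult1c1, chr17:53990632-53990881, minus strand: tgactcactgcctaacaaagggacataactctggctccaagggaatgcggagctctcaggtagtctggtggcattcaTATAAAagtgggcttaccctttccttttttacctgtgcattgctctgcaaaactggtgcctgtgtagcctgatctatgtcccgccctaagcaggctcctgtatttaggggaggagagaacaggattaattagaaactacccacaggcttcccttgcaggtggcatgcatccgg
Sult1d1, chr5:87569007-87569256, minus strand: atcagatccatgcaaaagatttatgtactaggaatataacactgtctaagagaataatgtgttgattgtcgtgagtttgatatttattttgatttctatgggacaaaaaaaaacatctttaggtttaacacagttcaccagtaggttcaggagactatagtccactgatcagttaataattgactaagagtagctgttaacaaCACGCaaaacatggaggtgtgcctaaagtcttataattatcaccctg

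Aligned, the upstream sequences of Cyp2a5 and Cyp2a4 were identical in 245 of 251 columns (97.6%), against 48.7% for Cyp2a5 with Cyp2f2 and 46.9% with Sult1c1. Both hold TATAAA, which begins 29 bases before the start in Cyp2a5 and 28 in Cyp2a4; in Sult1c1 it begins 173 bases before the start, and Cyp2f2 and Sult1d1 have none in this window. Among 100 of the 128 enzymes with a promoter entry, 30 (30%) held TATAAA on either strand, against 14.3% of 27025 genes with an entry. It was found in 6 of the 16 enzymes with an entry that were higher in vehicle libraries titled GFP+, among them Cyp1a2, Cyp2a4, Cyp2a5, Gstm1 and Sult1c1. GCGTG was present in 20% of the enzymes and 30.9% of all genes, the antioxidant response element core TGACNNNGC in 5% and 11.5%, and the palindromic site of EBF factors in 1% and 0.914%. These matches describe letters in a short window only.

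Cyp2f2 metabolises naphthalene in the mouse airway. It had log2 signals of 14.20, 13.67, 12.71 and 13.27 in odor titled GFP+, against 11.85, 10.91, 10.82 and 11.22 in odor titled GFP-, and 13.29, 13.09, 12.49 and 13.40 in vehicle titled GFP+, against 10.79, 10.90, 10.16 and 10.63 in vehicle titled GFP-. The sorts stood apart in both treatments, with a difference of 2.26 in odor (limma adjusted p = 1.87e-05) and 2.45 in vehicle (adjusted p = 8.55e-06). Cyp1a2, which oxidises caffeine and aromatic amines, had 10.73, 9.99, 8.41 and 8.92 in odor titled GFP+, against 6.89, 6.71, 6.27 and 6.33 in odor titled GFP-, and 9.31, 9.46, 8.25 and 9.46 in vehicle titled GFP+, against 5.98, 6.58, 5.91 and 6.82 in vehicle titled GFP-. Its libraries titled GFP- lay little above background, and its difference was 2.96 in odor (adjusted p = 3.01e-05) and 2.80 in vehicle (adjusted p = 5.95e-05).

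These P450 genes lie in a tandem cluster on chromosome 7, in the order Cyp2s1, Cyp2b10, Cyp2b13, Cyp2b9, Cyp2a4, Cyp2b23, Cyp2b19, Cyp2g1, Cyp2a5, Cyp2a22, Cyp2a12, Cyp2f2 and Cyp2t4 among the measured genes (Cyp1a2 lies elsewhere). Only Cyp2a4, Cyp2g1, Cyp2a5 and Cyp2f2 of these 13 were called higher, in both treatments. Of their neighbours, 6 exceeded background in no library. Cyp2b23 and Cyp2b10, named after their values were seen, exceeded it in 3 libraries and 1 library and differed by 0.07 (limma adjusted p = 0.889) and -0.09 (adjusted p = 0.828) in vehicle. Cyp2s1 at the end of the cluster, a P450 of epithelia, had log2 signals of 11.92, 12.54, 13.37 and 12.82 in odor titled GFP+, against 13.35, 13.20, 13.88 and 13.23 in odor titled GFP-. Its difference of -0.75 in odor (limma adjusted p = 0.0454) did not stay called when single libraries were left out (adjusted p = 0.159 without odor titled GFP+ replicate 1), the sorts overlapped, and in vehicle it was -0.40 (adjusted p = 0.314).

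**Figure D2:**
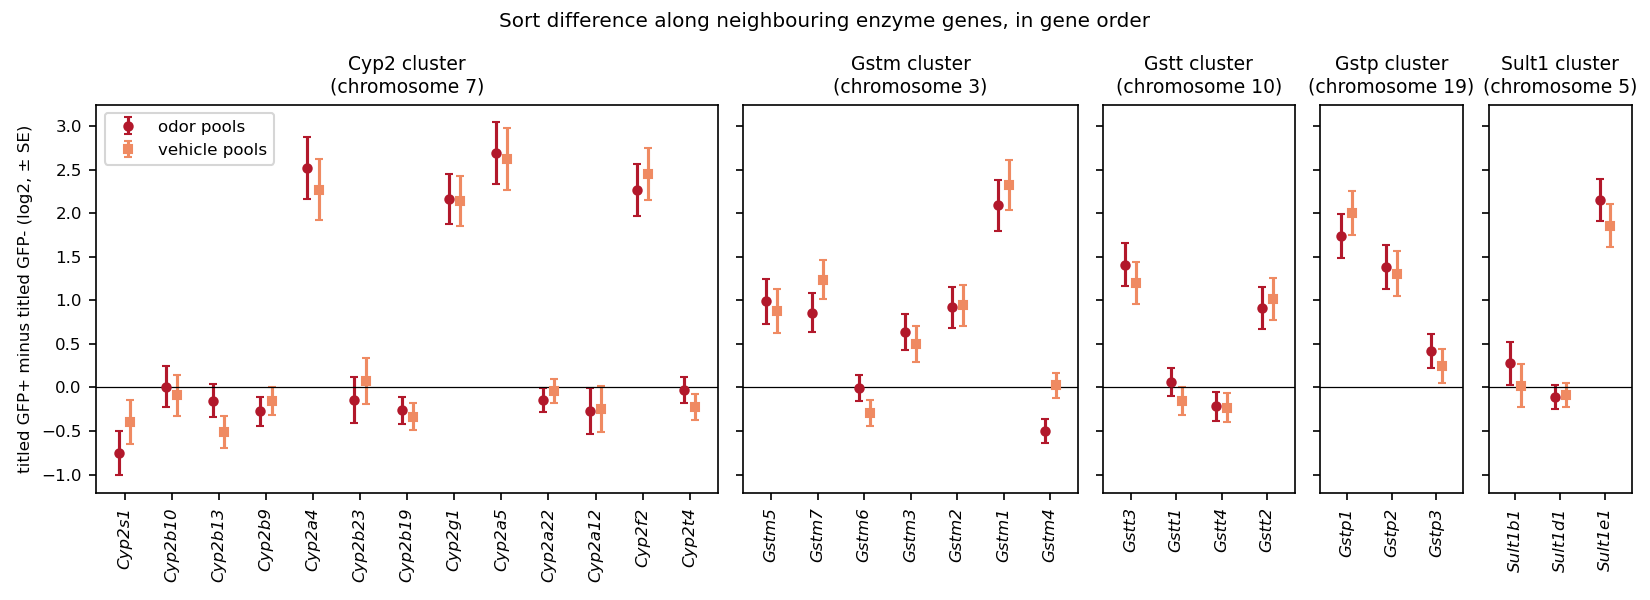
Sort difference (titled GFP+ minus titled GFP-, log2, with SE from limma) of measured enzyme genes in their order along 5 gene clusters, for odor pools (circles) and vehicle pools (squares). In the Cyp2 cluster Cyp2a4, Cyp2g1, Cyp2a5 and Cyp2f2 stand above 2 while the neighbours between them lie near or below 0.

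Glutathione transferases conjugate electrophilic metabolites with glutathione and are named by class. Gstm1, of the Mu class, had log2 signals of 15.07, 14.09, 13.65 and 13.83 in odor titled GFP+, against 12.55, 11.44, 11.98 and 12.30 in odor titled GFP-, and 13.99, 13.57, 13.16 and 13.89 in vehicle titled GFP+, against 11.63, 11.38, 10.97 and 11.34 in vehicle titled GFP-. The sorts did not overlap, and the difference was 2.09 in odor (limma adjusted p = 3.63e-05) and 2.32 in vehicle (adjusted p = 1.24e-05). Its neighbours in the Gstm cluster on chromosome 3 had smaller differences: Gstm2 was higher by 0.92 in odor (adjusted p = 0.00961) and by 0.94 in vehicle (adjusted p = 0.009). Gstm5, named after its values were seen, was higher by 0.99 (adjusted p = 0.0102) and 0.88 (adjusted p = 0.0238), and its vehicle call was lost in 4 of 23 settings (adjusted p up to 0.0859, without vehicle titled GFP+ replicate 1). Gstm4, the last gene of the cluster, differed by -0.50 in odor (adjusted p = 0.0175) and by 0.02 in vehicle (adjusted p = 0.936); its odor call was lost without odor titled GFP+ replicate 2 (adjusted p = 0.0508) or 4 (adjusted p = 0.0538) and with centring on the neuron markers (adjusted p = 0.416). Mu class genes are close in sequence, and cross-hybridisation between their probe sets was not tested.

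Gstp1, of the Pi class, had log2 signals of 8.31, 8.32, 6.97 and 7.81 in odor titled GFP+, against 5.97, 5.87, 5.97 and 6.65 in odor titled GFP-, and 8.04, 8.20, 8.13 and 7.69 in vehicle titled GFP+, against 5.93, 6.12, 5.96 and 6.04 in vehicle titled GFP-. It was higher by 1.74 in odor (limma adjusted p = 5e-05) and by 2.00 in vehicle (adjusted p = 1.14e-05), with the libraries titled GFP- close to background. Its near-copy Gstp2 was higher by 1.38 (adjusted p = 0.000649) and 1.31 (adjusted p = 0.00115), and how signal divides between the pair is uncertain. Gsto1, of the Omega class, had 6.40, 6.57, 6.71 and 7.21 in odor titled GFP+, against 5.60, 4.40, 5.10 and 5.03 in odor titled GFP-, and 6.91, 7.03, 7.12 and 6.75 in vehicle titled GFP+, against 5.21, 4.54, 4.97 and 4.46 in vehicle titled GFP-. As 0 of the 4 vehicle libraries titled GFP- exceeded background, its vehicle difference is a bound: at least 2.73-fold higher, taking the higher of the array's median negative control and the gene's own value for each dim library (adjusted p = 2.41e-06).

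The Alpha class genes followed the same direction less evenly. Gsta3, which in the mouse detoxifies aflatoxin epoxide, had log2 signals of 8.19, 8.39, 7.05 and 7.45 in odor titled GFP+, against 5.70, 5.95, 6.51 and 5.81 in odor titled GFP-, and 7.70, 6.89, 7.30 and 7.50 in vehicle titled GFP+, against 6.32, 6.04, 6.37 and 6.41 in vehicle titled GFP-. It was higher by 1.78 in odor (limma adjusted p = 6.98e-05) and by 1.06 in vehicle (adjusted p = 0.00851), and the vehicle call was lost after quantile normalization (0.70, adjusted p = 0.0739). The 2 differences did not differ by limma's interaction test (0.72, unadjusted p = 0.0714, adjusted p = 0.9999). Gsta4, which conjugates lipid aldehydes, was higher by 0.75 in odor (adjusted p = 0.00755), a call lost with quantile normalization (0.39, adjusted p = 0.119) and median centring (0.38, adjusted p = 0.0598), and its vehicle difference of 0.37 was not called (adjusted p = 0.192).

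Sulfotransferases showed the widest contrast within a class. Sult1c1, a phenol sulfotransferase, had log2 signals of 12.34, 11.17, 10.77 and 11.21 in odor titled GFP+, against 8.73, 7.79, 7.47 and 7.57 in odor titled GFP-, and 11.47, 10.62, 10.34 and 11.13 in vehicle titled GFP+, against 8.26, 7.71, 6.08 and 8.08 in vehicle titled GFP-. The difference was 3.48 in odor (limma adjusted p = 1.25e-05) and 3.36 in vehicle (adjusted p = 2.00e-05), with no overlap of the sorts. Sult1e1, the estrogen sulfotransferase, had 7.89, 7.61, 7.10 and 6.94 in odor titled GFP+, against 4.92, 4.85, 5.69 and 5.46 in odor titled GFP-, and 7.25, 7.11, 7.20 and 7.25 in vehicle titled GFP+, against 5.84, 5.60, 4.93 and 4.997 in vehicle titled GFP-. It was higher by 2.15 (adjusted p = 3.74e-06) and 1.86 (adjusted p = 2.11e-05), with 1 of 4 odor and 2 of 4 vehicle libraries titled GFP- above background.

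Sult1d1, a sulfotransferase of catecholamines in the mouse and the neighbour of Sult1e1 on chromosome 5, behaved differently. Its log2 signal was 17.78, 17.66, 18.10 and 18.20 in odor titled GFP+, against 18.02, 17.84, 18.08 and 18.24 in odor titled GFP-, and 17.98, 17.95, 18.21 and 18.13 in vehicle titled GFP+, against 18.06, 18.12, 18.23 and 18.18 in vehicle titled GFP-. These 4 groups overlapped, and no sort difference was called (-0.11 in odor, SE 0.14, limma adjusted p = 0.607; -0.08 in vehicle, SE 0.14, adjusted p = 0.716). The highest deposited signal of any probe set was 19.33. Centred on the mature neuron markers the differences turned to 0.18 and 0.15, also uncalled.

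**Figure D3:**
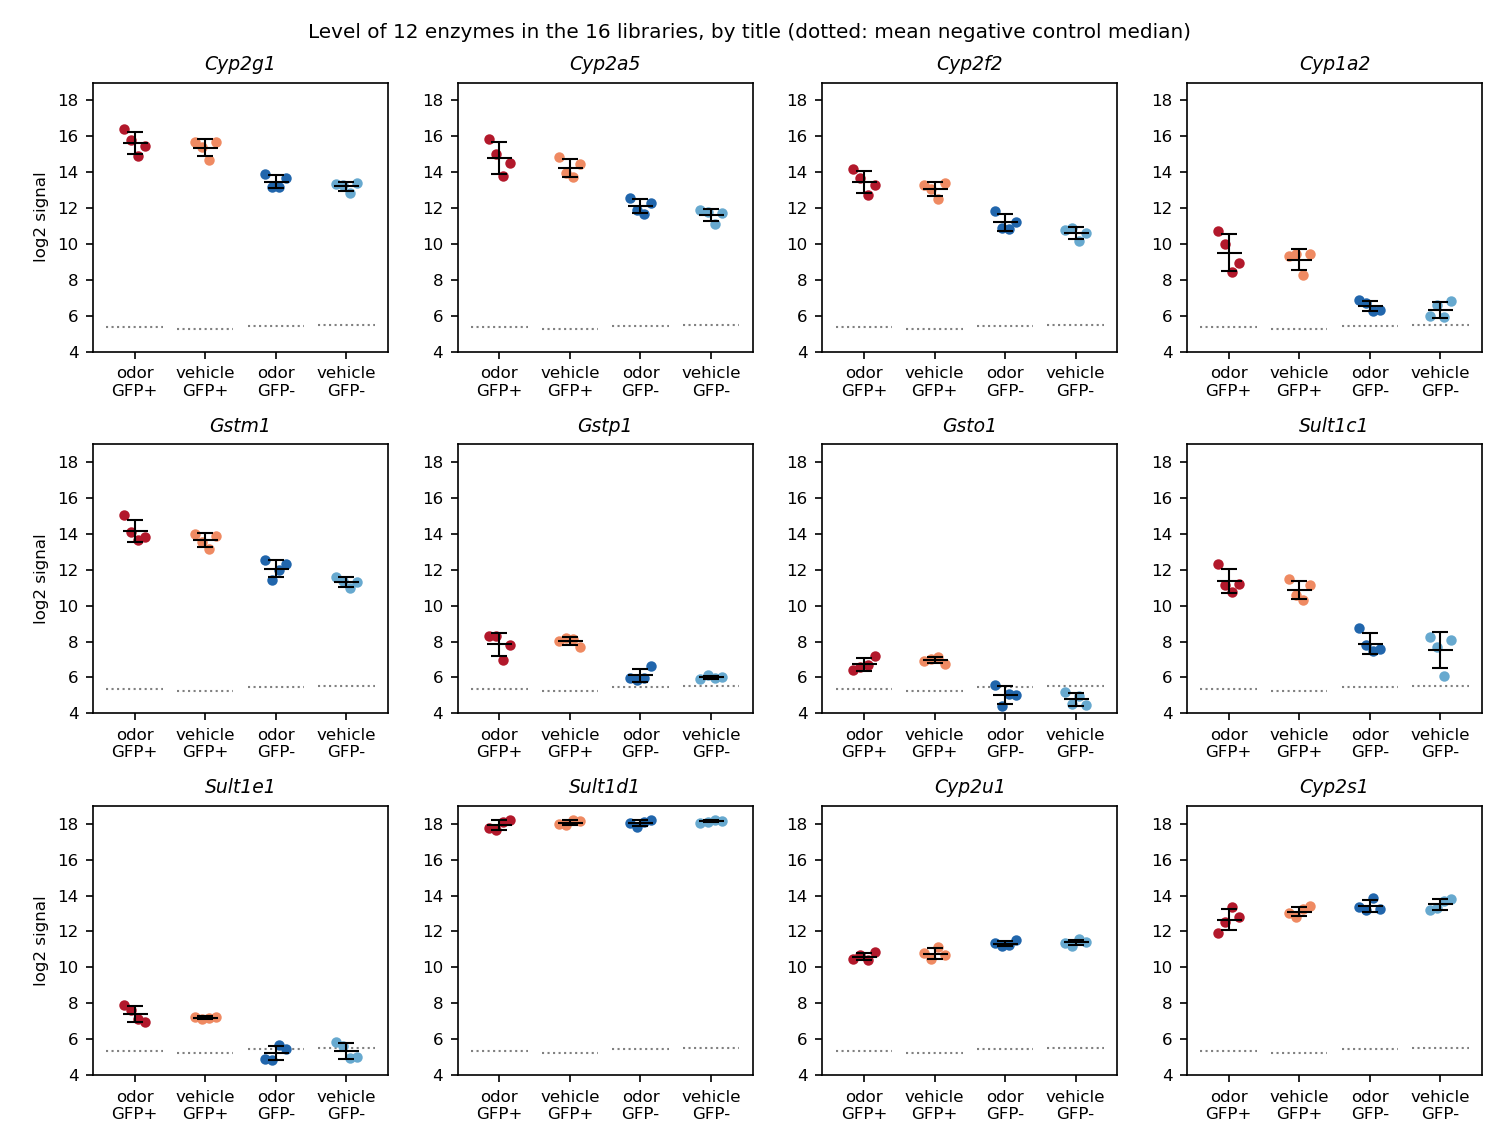
Log2 signal of 12 enzymes in the 16 libraries, with 1 point per library, the mean and SD of each group of 4 as bars, and the mean median of the negative controls dotted. In Cyp2g1, Cyp2a5, Cyp2f2, Cyp1a2, Gstm1, Gstp1, Gsto1, Sult1c1 and Sult1e1 all libraries titled GFP+ lie above all libraries titled GFP- within a treatment, while Sult1d1 lies near 18 in every group and Cyp2u1 is lower in libraries titled GFP+. The 12 genes were picked for display, and the share of all probe sets without overlap is not given.

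Among enzymes lower in libraries titled GFP+, Cyp2u1, a P450 that hydroxylates long-chain fatty acids, was the one called in both treatments. It had log2 signals of 10.47, 10.68, 10.38 and 10.86 in odor titled GFP+, against 11.35, 11.19, 11.23 and 11.54 in odor titled GFP-, and 10.78, 10.47, 11.15 and 10.68 in vehicle titled GFP+, against 11.35, 11.22, 11.59 and 11.43 in vehicle titled GFP-. The sorts did not overlap within a treatment, and the difference was -0.73 in odor (limma adjusted p = 0.00225) and -0.63 in vehicle (adjusted p = 0.00832). Centred on the mature neuron markers it was -0.44 (adjusted p = 0.104) and -0.39 (adjusted p = 0.182), and no longer called. Sult4a1, a sulfotransferase of brain named after its values were seen, differed by -0.46 in odor (adjusted p = 0.0036), while its vehicle difference of -0.17 was not called (adjusted p = 0.274). With the same centring the odor difference of Sult4a1 was -0.17 (adjusted p = 0.395). Of the 18 mature neuron markers measured, 0 were higher and 3 lower in either treatment, with summed log2 signals of 20.98 to 21.37 in odor titled GFP+, 21.41 to 21.52 in odor titled GFP-, 21.18 to 21.34 in the vehicle libraries titled GFP+ and 21.44 to 21.52 in those titled GFP-; their part in these enzymes' differences was not tested. Cyp4x1 (-0.65, adjusted p = 0.0172) and Cyp2ab1 (-0.63, adjusted p = 0.015) were lower in vehicle and lay near background in the libraries titled GFP+. Both calls were lost with the same centring (adjusted p = 0.136 and 0.219), that of Cyp4x1 also without vehicle titled GFP+ replicate 3 (adjusted p = 0.0563) and that of Cyp2ab1 without replicate 1 (adjusted p = 0.0563) or 2 (adjusted p = 0.051).

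Cyp4f18, which in the mouse oxidises leukotriene B in neutrophils, had log2 signals of 8.91, 8.16, 8.03 and 8.44 in odor titled GFP+, against 7.03, 6.36, 6.98 and 6.64 in odor titled GFP-, and 8.28, 7.96, 7.52 and 7.51 in vehicle titled GFP+, against 7.57, 7.11, 7.22 and 6.34 in vehicle titled GFP-. It was higher by 1.63 in odor (limma adjusted p = 0.000152), where the sorts stood apart. In vehicle, where they overlapped, its difference of 0.76 missed the threshold (adjusted p = 0.0544), and with the pool as a block it was called (adjusted p = 0.0109). The treatments did not differ by the interaction (0.87, unadjusted p = 0.0305, adjusted p = 0.9999). All 9 measured neutrophil markers were higher in both treatments, with summed log2 signals of 18.60 to 19.74 in odor titled GFP+, 9.31 to 11.34 in odor titled GFP-, 18.69 to 19.14 in the vehicle libraries titled GFP+ and 9.08 to 10.61 in those titled GFP-; their part in the differences of the enzymes was not tested.

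Some markers of the cells known for these enzymes moved with the titled sort. Of all tested probe sets 10.2% were higher in vehicle and 11% in odor. Of 15 sustentacular markers 7 were higher in vehicle and 9 in odor, and their summed log2 signal was 14.27 to 15.38 in odor titled GFP+, 13.23 to 13.90 in odor titled GFP-, 14.14 to 14.61 in the vehicle libraries titled GFP+ and 13.42 to 13.63 in those titled GFP-; Notch3 and Hes1 exceeded background in no library. Of 14 measured Bowman's gland markers 6 were higher in each treatment. Their summed log2 signals were 13.76 to 15.16 in odor titled GFP+ and 10.80 to 12.11 in odor titled GFP-. In vehicle the sums were 13.37 to 14.10 in libraries titled GFP+ and 10.58 to 11.57 in those titled GFP-. The median sort difference of these 14 was only 0.06 in vehicle and 0.51 in odor, so part of the list carried the sums. The gland list names Ltf, a gene also known from neutrophils, and no gland sum without it was computed. Bpifb1, Muc5b, Muc5ac, Obp1a and Odam exceeded background in no library. All 8 microvillar markers were higher in both treatments, Chat among them, which exceeded background in no library. Of 7 macrophage markers 6 were higher in vehicle and 5 in odor. Of 6 immature neuron markers 5 were higher in vehicle and 4 in odor, with summed log2 signals of 16.09 to 16.55 in odor titled GFP+, 16.05 to 16.23 in odor titled GFP-, 16.41 to 16.62 in the vehicle libraries titled GFP+ and 16.12 to 16.28 in those titled GFP-. Markers of several cell types, immature neurons among them, thus moved with the enzymes, and the part of each in the enzymes' differences was not tested. In sorted bulk samples, fewer cells of a type and less RNA per cell cannot be told apart.

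The 7 enzymes of widest sort difference also varied together between pools. In libraries titled GFP+ all 7 had their highest value in odor replicate 1 and their lowest in vehicle replicate 3, a range of 1.702 to 2.47 on the log2 scale. The same 2 pools held the highest and lowest values of all 7 in libraries titled GFP-, over 0.97 to 2.66. In libraries titled GFP+ the summed sustentacular and gland markers were likewise highest in odor replicate 1 (15.38 and 15.16) and lowest in vehicle replicate 3 (14.14 and 13.37), and the summed mature neuron markers had their lowest value, 20.98, in odor replicate 1. The summed neutrophil (19.74) and microvillar markers (12.49) were also highest in odor replicate 1, but lowest in odor replicate 3 (18.60) and vehicle replicate 2 (11.17). In libraries titled GFP- the markers followed the enzymes only in part. There the sustentacular sum was highest in odor replicate 1 (13.90) and lowest in odor replicate 2 (13.23). The gland sum was highest in odor replicate 3 (12.11) and lowest in vehicle replicate 2 (10.58). Of single sustentacular markers, Cbr2 (11.96 and 10.49) and Cdh1 (7.19 and 6.50) were highest in odor replicate 1 and lowest in vehicle replicate 3. Cbr2 is also among the partner enzymes listed below, so it is not a marker apart from such enzymes. Krt18 (6.64) and Krt8 (6.25) were highest in odor replicate 4. The pattern was noticed in these values and the libraries of a pool share their mice. As the 7 enzymes vary together, their count is not that of independent genes. The share of all probe sets with the same highest and lowest libraries was not computed.

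**Figure D4:**
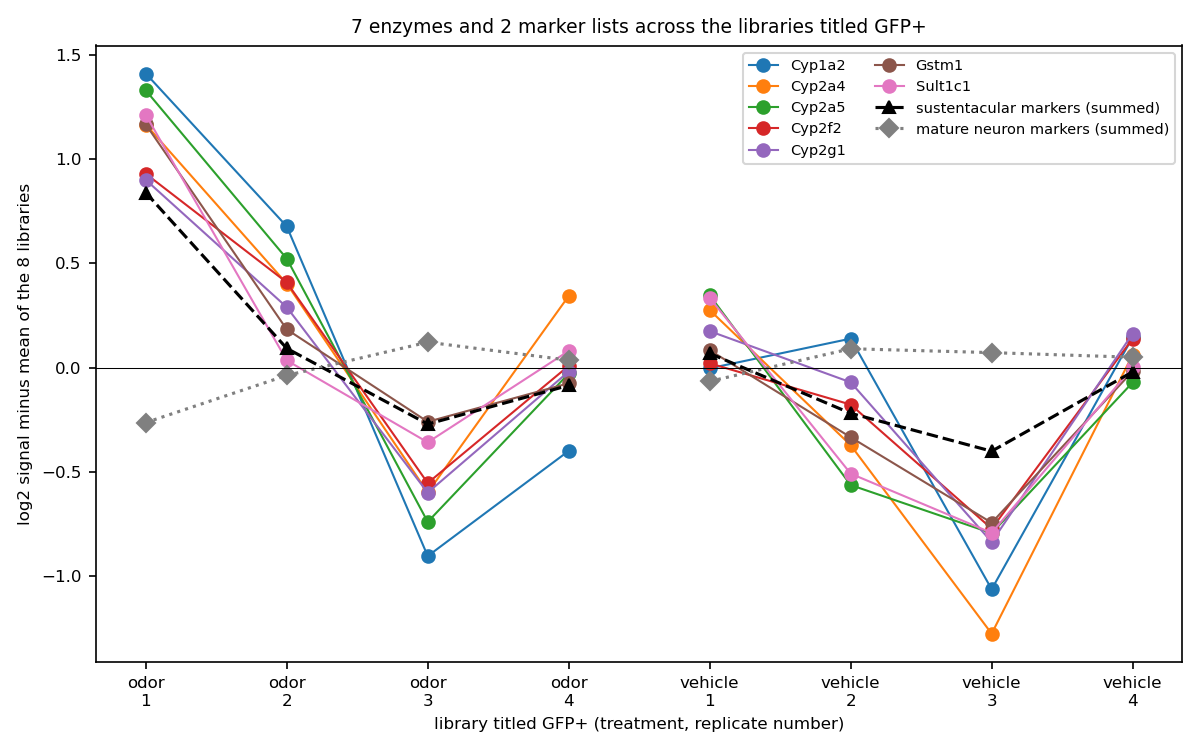
Log2 signal of the 7 enzymes, and of the summed sustentacular and mature neuron markers, in each library titled GFP+, given as the difference from the mean of the 8 libraries; lines join libraries of a treatment, whose replicate numbers carry no order. All 7 enzymes are highest in odor replicate 1 and lowest in vehicle replicate 3.

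No enzyme passed the test between odor and vehicle. In libraries titled GFP+ 0 of 128 enzymes were called between odor and vehicle, beside 0.00901% of all tested probe sets, in libraries titled GFP- 0, beside 0.018%, and for the interaction of odor and sort 0, beside 0.0045%. The smallest adjusted p among the enzymes by limma was 0.968, 0.9997 and 0.9999 in these comparisons. At an unadjusted p below 0.05 the counts were 7 in libraries titled GFP+, beside 4.83%, 8 in libraries titled GFP-, beside 3.3%, and 8 for the interaction, beside 2.94%. The median odor difference of the enzymes was 0.03 in libraries of either title, against -0.01 and -0.00 for all tested probe sets.

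The 7 enzymes of widest sort difference nonetheless had positive odor differences in both sorts, all uncalled. In libraries titled GFP+ these ran from 0.29 (Cyp2g1, 95% interval -0.33 to 0.90) to 0.66 (Cyp2a4, -0.09 to 1.40), and in libraries titled GFP- from 0.23 (Cyp1a2, -0.63 to 1.08) to 0.74 (Gstm1, 0.12 to 1.35, unadjusted p = 0.0217, limma adjusted p = 0.9997). Odor and vehicle libraries overlapped for all 7 in each sort. The 2 pools at the ends of their range lie in different treatments, and without odor titled GFP+ replicate 1 the differences in that sort ran from -0.01 to 0.38, without vehicle titled GFP+ replicate 3 from 0.05 to 0.37. In libraries titled GFP- they ran from 0.08 to 0.58 without odor replicate 1 and from -0.13 to 0.62 without vehicle replicate 3. These intervals are from the unpaired fit, and all but that of Gstm1 in libraries titled GFP- include 0. Between libraries of the same replicate number, which come from different mice, the odor difference was positive in 4 of 4 for 3 of the 7 enzymes in libraries titled GFP+ (Cyp2a5, Cyp2a4 and Sult1c1) and for 4 of the 7 in libraries titled GFP- (Cyp2a5, Cyp2a4, Cyp2f2 and Gstm1). For Cyp2a4 in libraries titled GFP+ these differences were 0.89, 0.77, 0.68 and 0.28. The 7 enzymes vary together, so these counts are not independent. The share of all probe sets positive in 4 of 4 was not computed, and no odor effect is drawn from the counts. With the replicate number as a block none of the 7 was called, and the lowest limma adjusted p was that of Cyp2a4 in libraries titled GFP+ (0.569).

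Among enzymes above background in at least 1 library, the smallest odor p-values mostly belonged to other genes; dimmer members with smaller p-values are only counted. In libraries titled GFP+ they were the pseudogene Cyp4f41-ps (-0.37, unadjusted p = 0.0173), which exceeded background in 1 of 16 libraries, Cyp4b1 (0.54, unadjusted p = 0.0247), a P450 that hydroxylates fatty acids and activates airway toxicants, and Cyp2ab1 (0.41, unadjusted p = 0.0287), each with a limma adjusted p of 0.968. In libraries titled GFP- Gstm1 was followed by Cyp2c66 (0.40, unadjusted p = 0.0448, limma adjusted p = 0.9997), which exceeded background in 1 library, and Cyp4f41-ps (0.30, unadjusted p = 0.046). For the interaction they were Cyp4f41-ps (-0.68, unadjusted p = 0.00356), Gstm4 (-0.52, unadjusted p = 0.0183) and Cyp4f18, each with a limma adjusted p of 0.9999. Cyp2j6, an arachidonic acid epoxygenase known from this tissue, was called neither for the sort (0.04 in odor, 0.20 in vehicle) nor for odor (0.20 and 0.36 in libraries titled GFP+ and titled GFP-).

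**Figure D5:**
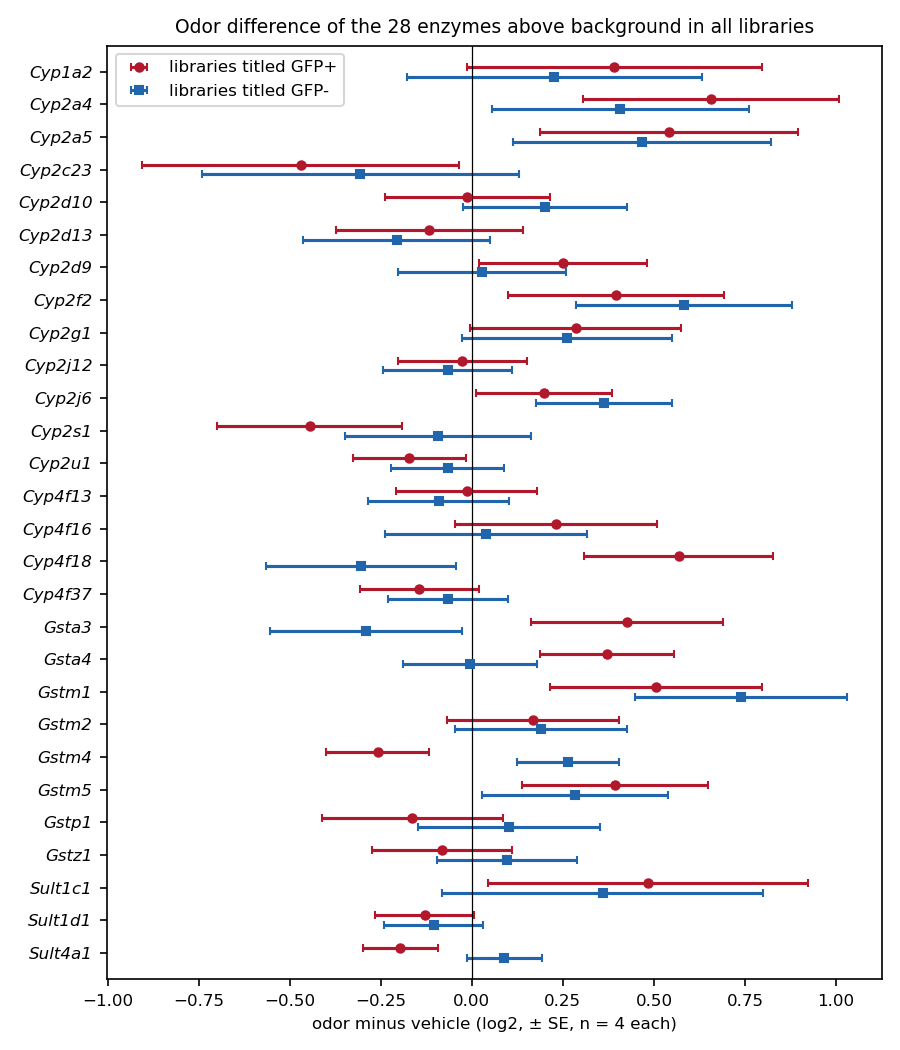
Odor minus vehicle difference (log2, with SE from limma, n = 4 each) of the 28 enzymes above the median negative control in all 16 libraries, in libraries titled GFP+ (circles) and titled GFP- (squares). None was called, and Gstm1 in libraries titled GFP- (0.74) lies farthest to the right.

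The enzymes that supply or follow these reactions gave a mixed picture. Of 71 listed partners 65 were measured. In vehicle 9 were higher in libraries titled GFP+, beside 10.2% of all tested probe sets, and 1 was lower, beside 7.16%. In odor 12 were higher, beside 11%, and 1 was lower, beside 9.86%. Aldh2, the mitochondrial aldehyde dehydrogenase, was higher by 4.82 in odor and 4.67 in vehicle, and Mgst1, the microsomal glutathione transferase, by 4.89 and 4.50. Gpx6, a glutathione peroxidase of the olfactory mucosa, was higher by 2.74 and 2.10. Aldh1a1, which oxidises retinal, was higher by 1.46 in vehicle and Gsr, the glutathione reductase, by 1.45, and the carbonyl reductase Cbr1 differed by -0.41 (limma adjusted p = 0.0336). Abcg2, an efflux pump above background in 0 of 8 libraries titled GFP-, was at least 1.56-fold higher in odor and at least 1.57-fold in vehicle. Of 5 listed electron donors and related haem proteins of the P450s, Por was not measured. Of the 4 measured, 0 were called in vehicle and 1, Cyb5a, in odor (0.47, limma adjusted p = 0.0421). Of 9 regulators, among them the aryl hydrocarbon receptor and Nfe2l2, 0 were called in either treatment, and 0 of the 65 partners were called with odor. Gpx6 is itself 1 of the listed gland markers, and Cbr2, another listed partner, is 1 of the listed sustentacular markers. The neutrophil markers given above moved with the same sort, and their part in the differences of Aldh2 and Mgst1 was not tested.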

How the data were processed

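RNA of 16 sorted cell pools was hybridised to Clariom S mouse arrays, 1 array each. The authors deposited log2 signals per probe set. Per the submitters' processing notes, Affymetrix Expression Console was used; how it corrected background and normalized, and the array build, were not given in the sources used here. Array medians differ between the titled sorts. Signals of dim probe sets are compressed toward background, which understates their differences.

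Groups came from the sample titles. Of 28846 probe sets, 6640 controls were left out and 22206 tested. Symbols came from the platform annotation (19572 probe sets with 1 symbol, 2634 with none); a gene with several probe sets takes the one with the highest mean. The members and lists were chosen with earlier results of these data known. limma (version 3.58.1, R 4.3.3) fitted 4 group means by lmFit and eBayes without trend, with 12 residual and 4.49 prior degrees of freedom, with an adjusted p threshold of 0.05. The number of arrays limits the precision. The fit was tested on simulated data. A probe set above the array's median negative control counts as above background.

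Named genes are enzymes known for the olfactory mucosa, up to 4 called members per class and direction with the largest vehicle sort difference, the highest-mean member of a class, the 3 members of smallest p where no odor comparison was called, and up to 6 called partners per direction; others are marked in the text. The printed tests are unpaired. Libraries of a pool share their mice, and their deviations from group means correlated at 0.158 to 0.399 (Pearson, over probe sets); the pool was a block in an alternative only. Odor and vehicle libraries of the same number, from different mice, correlated at 0.174 to 0.278 in those titled GFP+ (4 of 4 pairs) and at 0.0729 to 0.406 in those titled GFP-; this too was a block in an alternative. No arrays held identical values. Alternatives were other scalings, a filter on dim probe sets, a trended variance, replicate blocks, the lowest probe set of a gene, a stricter background level and leaving out each library. Upstream sequences are from RefSeq (GRCm38.p6), 250 bases before the annotated start.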

Additional observations from a re-analysis of the deposited data

Results flagged for a closer look

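Of 132 pairs of a named gene and a group of 4 libraries (33 genes), 6 had a single library whose gap to its nearest neighbour, divided by the group's range, exceeded Dixon's 95% critical value for 4 samples; chance gives about 1 in 20 such pairs, and genes that vary together are not independent. In vehicle titled GFP+ replicate 3, Cyp1a2 was lowest at 8.25, with the next library at 9.31 (ratio 0.877). In vehicle titled GFP- replicate 3, from the same pool, Cyp2g1 was lowest at 12.82, with the next at 13.31 (0.8291). Gstp1 (6.65, next 5.97, ratio 0.869) and Cyp2c66 (5.59, next 4.88, ratio 0.860) were both highest in odor titled GFP- replicate 4. Gstm4 (9.46, next 9.12, ratio 0.977) and Cyp2j6 (8.14, next 7.87, ratio 0.841) were both highest in vehicle titled GFP+ replicate 1.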

How the results depend on the processing

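Across the alternatives and leave-one-out fits run, 0 enzymes were called with odor in either sort or for the interaction. The replicate number as a block tested only the odor differences. With the pool as a block only the sort differences and the interaction were tested, since each pool had a single treatment. Leaving out each library in turn gave 16 to 19 enzymes higher in vehicle, 6 to 11 lower in vehicle (6 without vehicle titled GFP+ replicate 3), 20 to 23 higher in odor and 3 to 10 lower in odor (3 without odor titled GFP+ replicate 4, 4 without odor titled GFP+ replicate 1 or titled GFP- replicate 3, 5 without odor titled GFP- replicate 1). The other alternatives gave 16 to 22 higher in vehicle and 18 to 27 higher in odor. Lower enzymes numbered 72 in vehicle and 70 in odor with median centring, 0 and 0 with centring on mature neuron markers, and 2 and 4 with the filter on dim probe sets, which tests fewer of them. With the pool as replicate block, 19 were higher and 12 lower in vehicle and 22 higher and 10 lower in odor; beside the change in Cyp4f18 already given, it led to a call of Cyp2c66 in odor (-0.50), and changed the call of no other named enzyme. Cyp2g1, Cyp2a5, Cyp2a4, Cyp2f2, Cyp1a2, Gstm1 and Sult1c1 were called in both treatments under all 23 settings. These enzymes were chosen for their wide differences, and not every setting could change them. Each has a single probe set, so taking the lowest changed nothing. Leaving out a library of one treatment left the sort difference in the other treatment as it was. Small uncalled or dim differences turned sign. With quantile normalization this held in vehicle for Cyp2j6 (-0.034), Cyp4b1 (-0.023) and Gstm4 (-0.035) and in odor for Cyp2j6 (-0.13). With median centring it held in vehicle for Cyp2j6 (-0.17), Gsta4 (-0.0025), Cyp4f41-ps (-0.33), Cyp4b1 (-0.075) and Gstm4 (-0.35) and in odor for Cyp2j6 (-0.33). With centring on mature neuron markers it held for Sult1d1 (0.15 in vehicle, 0.18 in odor), Cyp2ab1 in odor (0.12) and Sult4a1 in vehicle (0.058). Over the fits that each left out 1 library, the sort difference ran from -0.14 to 0.18 for Cyp2j6 in odor, from -0.064 to 0.085 for Gstm4 in vehicle and from -0.030 to 0.11 for Cyp4f41-ps in vehicle. The odor difference ran from -0.013 (without odor titled GFP+ replicate 1) to 0.76 for Cyp1a2 in titled GFP+ and from -0.13 (without vehicle titled GFP- replicate 3) to 0.60 for Sult1c1 in titled GFP-. Centring adds 1 constant to every gene of a comparison (-0.37 in both treatments with the median; 0.23 in vehicle and 0.29 in odor with the neuron markers), which by itself turns these small differences; the cause under quantile normalization was not tested, and leave-one-out fits hold fewer samples. Signal near background limits 78 of the 128 enzymes, which exceeded it in no library.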

Other observations

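A pair of flavin-containing monooxygenases, Fmo1 and Fmo5, which oxidise nitrogen and sulfur in drugs and dietary compounds, was noticed among the partners after the values were seen. Fmo5 had log2 signals of 7.02, 7.10, 6.47 and 6.85 in odor titled GFP+, against 6.00, 5.70, 5.59 and 5.69 in odor titled GFP-, and 6.05, 6.43, 6.14 and 5.79 in vehicle titled GFP+, against 6.15, 5.87, 6.17 and 6.03 in vehicle titled GFP-. Its sort difference was called in odor (1.11, limma adjusted p = 5.96e-05) and not in vehicle (0.05, adjusted p = 0.877), and the difference between the treatments was not called (1.07, limma unadjusted p = 0.000247, adjusted p = 0.596). Fmo1 had 7.51, 7.78, 6.85 and 7.25 in odor titled GFP+, against 6.45, 6.52, 6.08 and 6.12 in odor titled GFP-, and 6.54, 6.57, 6.53 and 6.87 in vehicle titled GFP+, against 6.56, 6.5996, 6.79 and 6.44 in vehicle titled GFP-. Its sort difference was 1.05 in odor (limma adjusted p = 0.00025) and 0.03 in vehicle (adjusted p = 0.927), and the interaction of 1.02 was not called (adjusted p = 0.9999). For both genes the odor pools, 4 of 4, had sort differences above those of all 4 vehicle pools. The pair was noticed for this contrast, and the share of all probe sets with such a separation was not computed. Outside odor titled GFP+, Fmo5 lay little above background.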
